A study of Homo sapiens with 8 samples.

Results

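ATP-binding cassette (ABC) genes encode proteins that use the energy of ATP to move substrates across membranes, and a few soluble relatives that act on ribosomes. Members at the cell surface export drugs, organic anions, sterols and phospholipids, and others work in mitochondria, peroxisomes and lysosomes. In epidermis the family is known for lipid delivery to the skin barrier, and in carcinoma for drug efflux. The genes described here were the rows of the count table whose symbol is ABC, a subfamily letter from A to G and a number, which gave 45 of 20294 genes. Of these, 34 had enough reads to be tested, among 13124 tested genes in all.

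The cells were HSC-5, a human cutaneous squamous cell carcinoma line. All libraries came from cells that stably carried Cas9 after lentiviral transduction, were grown in DMEM with serum, and were selected with G418. The groups were sgEZH2-1 with 3 libraries, sgEZH2-2 with 3 libraries, and Control, the empty vector, with 2 libraries; both guides are directed at EZH2, the catalytic subunit of Polycomb repressive complex 2, which methylates a lysine of histone H3 and keeps genes silent. The authors left out 1 further control because it clustered apart, which can make the spread between the controls look smaller. The labels name no clones, and cells selected in bulk can carry a mixture of alleles. Nothing in the labels says whether the libraries within a group are separate cultures; the p-values therefore reflect the spread among these libraries, which may be technical.

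Library totals ran from 12.9 to 14.7 M counts for sgEZH2-1, from 12.6 to 14.3 M for sgEZH2-2 and from 14.3 to 15.5 M for Control. Levels are in CPM, with each library total adjusted by the trimmed mean of M values (TMM), and the order within a group is the order of the columns. EZH2 itself was at 56.4, 56.3 and 48.0 CPM with sgEZH2-1, at 73.9, 67.6 and 65.1 with sgEZH2-2, and at 82.7 and 84.1 in Control. All guide libraries were below both controls; the log2 fold change passed the test with sgEZH2-1 (-0.64, adjusted p = 0.000529) and not with sgEZH2-2 (-0.28, adjusted p = 0.0699). All 10 squamous keratinocyte markers passed the count filter, with summed levels of 3142 to 3792 CPM, 3249 to 3405 CPM and 3657 to 3847 CPM in the groups sgEZH2-1, sgEZH2-2 and Control. The fibroblast, leukocyte and melanocyte markers COL1A2, CD3E, TYR and DCT had no read in any library. Of 5 melanocyte markers 3 passed the filter, with sums of 30.5 to 33.1 CPM with sgEZH2-1, 27.8 to 29.8 CPM with sgEZH2-2 and 28.9 to 30.8 CPM in Control. Of 6 leukocyte markers 2 passed, with sums of 1.89 to 3.32 CPM, 2.29 to 3.24 CPM and 1.96 to 2.49 CPM in the same order of groups. Summed endothelial markers lay at 76.5 to 81.7 CPM with sgEZH2-1, 143 to 160 CPM with sgEZH2-2 and 177 to 184 CPM in Control; nearly all of this was CDH5, with KDR at 0. Of 8 fibroblast markers, 1 passed the count filter, and their sum was 5.02 to 8.89 CPM with sgEZH2-1, 11 to 14 CPM with sgEZH2-2 and 6.13 to 7.24 CPM in Control. The part of these markers in the results below was not tested. In bulk RNA, fewer cells of a type and less RNA per cell cannot be told apart. Adjusted p-values of single genes come from edgeR's quasi-likelihood test over all tested genes, with a threshold of 0.05, and the difference between the guides was tested directly.

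Promoters are shown for ABCG2 and ABCC5, the drug and anion pumps called lower with each guide, and for ABCA1 and ABCA3, the lipid transporters called higher with each guide. Each line holds the 250 bases upstream of the start site, 5′ to 3′ on the strand of the gene, from RefSeq on GRCh38.p14, and capitals mark GC boxes, the letters GGGCGG or, on the other strand, CCGCCC. The regions are chr4:88158910-88159159 for ABCG2, chr3:184017885-184018134 for ABCC5, chr9:104928156-104928405 for ABCA1 and chr16:2340729-2340978 for ABCA3, all on the minus strand.
ABCG2: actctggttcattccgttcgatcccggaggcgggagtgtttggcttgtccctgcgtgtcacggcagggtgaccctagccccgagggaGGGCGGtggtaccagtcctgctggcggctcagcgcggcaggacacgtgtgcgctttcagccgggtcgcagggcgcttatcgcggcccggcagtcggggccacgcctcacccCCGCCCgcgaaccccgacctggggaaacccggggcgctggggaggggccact
ABCC5: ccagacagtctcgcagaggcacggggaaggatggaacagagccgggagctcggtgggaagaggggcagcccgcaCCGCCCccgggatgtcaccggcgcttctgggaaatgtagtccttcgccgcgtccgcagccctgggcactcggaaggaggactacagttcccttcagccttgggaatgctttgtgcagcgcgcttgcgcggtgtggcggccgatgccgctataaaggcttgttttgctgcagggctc
ABCA1: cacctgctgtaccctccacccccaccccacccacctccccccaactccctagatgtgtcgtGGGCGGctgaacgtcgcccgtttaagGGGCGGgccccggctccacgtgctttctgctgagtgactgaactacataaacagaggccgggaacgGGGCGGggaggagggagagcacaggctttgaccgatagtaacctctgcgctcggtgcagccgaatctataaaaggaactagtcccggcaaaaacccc
ABCA3: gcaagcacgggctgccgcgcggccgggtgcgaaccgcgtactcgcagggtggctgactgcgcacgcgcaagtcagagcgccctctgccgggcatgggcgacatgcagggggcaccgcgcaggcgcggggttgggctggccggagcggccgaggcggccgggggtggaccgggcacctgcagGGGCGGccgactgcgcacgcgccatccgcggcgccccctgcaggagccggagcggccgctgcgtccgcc
The windows held 2 GC boxes in ABCG2, 1 in ABCC5, 3 in ABCA1 and 1 in ABCA3. Their CG dinucleotides numbered 27 in ABCG2, 21 in ABCC5, 16 in ABCA1 and 38 in ABCA3. A promoter entry was matched for 35 of the 45 members, and 20 of these (57.1%) held a GC box, against 42.5% of 34943 distinct start sites of all genes. The median number of CG dinucleotides was 17 over the members, with a range of 1 to 54, against 11 over all start sites. In both comparisons each member counts once, whereas a gene with several start sites counts more than once among all start sites. The windows of ABCA13 and ABCC2, both named below, held 2 and 1 CG dinucleotides and no GC box. ABCG2 has 5 listed start sites, whose windows held 2 to 32 CG dinucleotides, and the one shown is nearest to the 5′ end of its transcript numbered 201. In order of position, the 5 windows held 0, 2, 2, 0 and 0 GC boxes. These matches describe letters and are not measured binding sites.

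Pumps for drugs and organic anions were led by ABCC1 in HSC-5 cells, and their summed level was lower with either guide than in Control. The sum over the 10 genes on this list was 732 ± 15.8 CPM with sgEZH2-1 (SD, n = 3), 822 ± 2.43 CPM with sgEZH2-2 (SD, n = 3) and 881 ± 19.0 CPM in Control (SD, n = 2). Over all 45 members the sums were 1572 ± 29.8 CPM with sgEZH2-1, 1661 ± 7.48 CPM with sgEZH2-2 and 1745 ± 19.6 CPM in Control. Different genes were compared per kilobase of exon, with the exons of all annotated transcripts of a gene merged. Genes with many annotated transcripts can come out lower on this scale. On it ABCC1 was the most abundant member, at 46.0, 54.6 and 56.4 CPM per kb in the groups sgEZH2-1, sgEZH2-2 and Control. In Control cells the next efflux pumps were ABCC5 at 16.4 CPM per kb, ABCC3 at 11.6, ABCG2 at 8.33 and ABCC2 at 7.69. ABCB1, the P-glycoprotein pump of multidrug resistance, was nearly absent, with 5, 5 and 0 counts with sgEZH2-1, 0, 0 and 1 counts with sgEZH2-2, and 0 and 0 counts in Control.

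**Figure D1:**
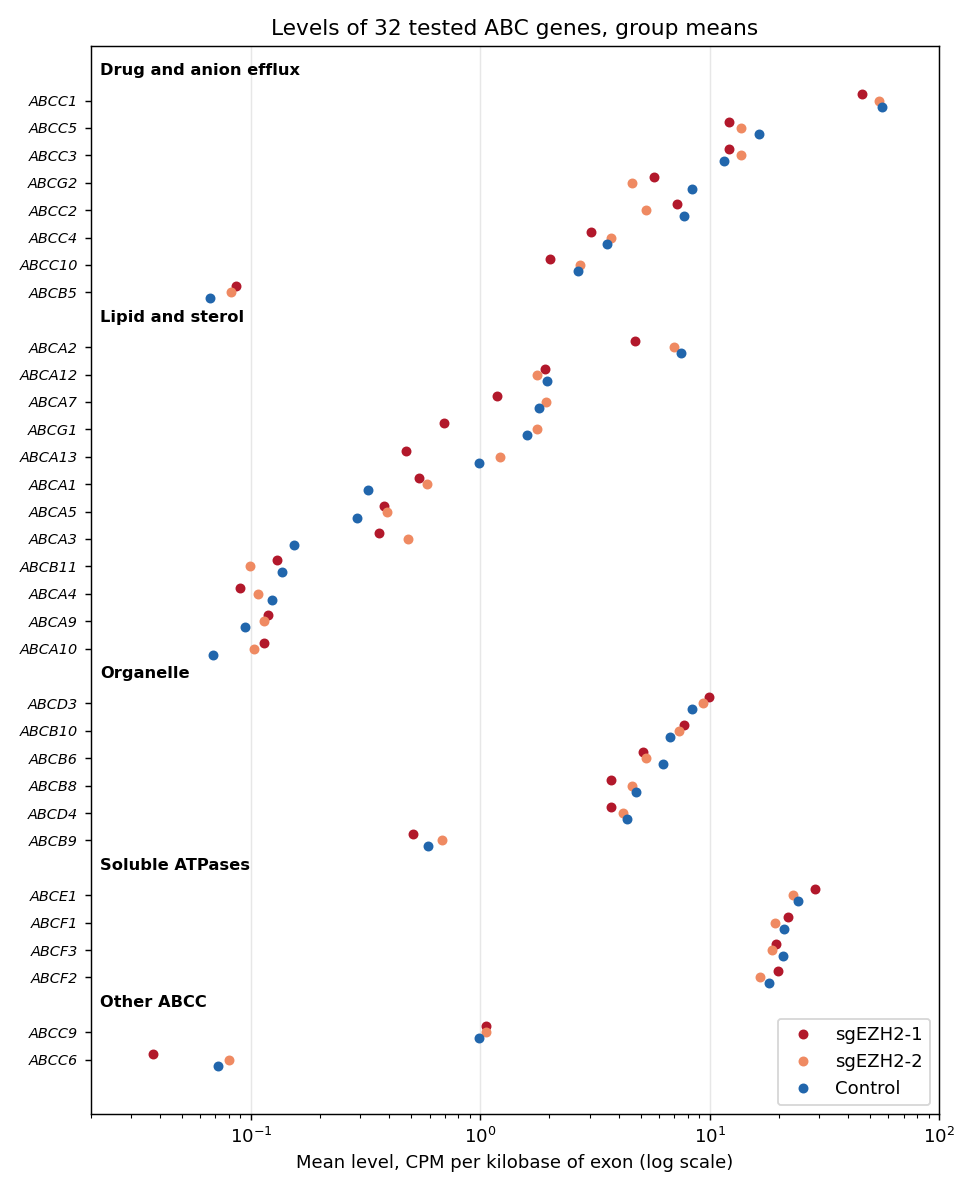
Mean level of 32 tested ABC genes on a log axis of CPM per kilobase of exon, with 1 point for each of the groups sgEZH2-1, sgEZH2-2 and Control, grouped by role. ABCC1 stands highest at 46.0 CPM per kb with sgEZH2-1, 54.6 with sgEZH2-2 and 56.4 in Control, and the soluble ATPases form a band between 16.6 and 28.8 CPM per kb.

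Of the 8 efflux pumps tested, 4 fell with sgEZH2-1 (ABCC1, ABCC5, ABCC10 and ABCG2), while 9.51% of all tested genes were called lower and 11.3% higher in that comparison. With sgEZH2-2, 3 fell (ABCC2, ABCC5 and ABCG2) and ABCC3 rose, while 2.5% of all tested genes were called lower and 6.18% higher. The median log2 fold change of the 8 pumps was -0.26 with sgEZH2-1, against -0.0094 over all tested genes, and -0.0058 with sgEZH2-2, against 0.00091 over all tested genes. Both comparisons use the same 2 control libraries.

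ABCG2 (chromosome 4, 88090264 to 88231322, minus strand, GRCh38), the breast cancer resistance protein that exports drugs and porphyrins, was at 31.7, 28.3 and 26.0 CPM with sgEZH2-1, at 22.1, 22.9 and 24.6 CPM with sgEZH2-2, and at 42.5 and 41.6 CPM in Control. All 6 guide libraries were below both controls, and the sgEZH2-2 libraries lay below all sgEZH2-1 libraries. The means were 28.7 ± 2.87 CPM (SD, n = 3), 23.2 ± 1.30 CPM (SD, n = 3) and 42.0 ± 0.613 CPM (SD, n = 2) in that order of groups. ABCG2 fell with sgEZH2-1 (log2 fold change -0.55; SE 0.0905, adjusted p = 0.00199) and with sgEZH2-2 (-0.86; SE 0.0918, adjusted p = 0.000342). Without any single library these calls held, with adjusted p up to 0.0214 and 0.00596. The fall was larger with sgEZH2-2: the log2 difference of sgEZH2-1 minus sgEZH2-2 was 0.31 (SE 0.0858, adjusted p = 0.0292), a call lost without any 1 of sgEZH2-1 libraries 1 and 2 or of the 3 sgEZH2-2 libraries (adjusted p up to 0.0946).

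ABCC5 (chromosome 3, 183919934 to 184018015, minus strand), an exporter of cyclic nucleotides and other organic anions, was at 142, 141 and 134 CPM with sgEZH2-1, at 162, 153 and 154 CPM with sgEZH2-2, and at 189 and 187 CPM in Control. The groups did not overlap, with sgEZH2-1 lowest and Control highest. ABCC5 fell with sgEZH2-1 (log2 fold change -0.43, SE 0.0520, adjusted p = 0.000323) and with sgEZH2-2 (-0.26, SE 0.0521, adjusted p = 0.0112), and the guides differed by -0.17 on the log2 scale (adjusted p = 0.0277). The call with sgEZH2-1 held without any single library. The call with sgEZH2-2 was lost without either control or without sgEZH2-2 library 2 or 3, with adjusted p up to 0.0853, and the call between the guides without any 1 of 5 guide libraries, all but sgEZH2-1 library 1, with adjusted p up to 0.0871.

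ABCC1 (chromosome 16, 15949577 to 16143074, plus strand), also called MRP1, which exports glutathione conjugates and many drugs, was at 336, 362 and 348 CPM with sgEZH2-1, at 410, 414 and 417 CPM with sgEZH2-2, and at 439 and 415 CPM in Control. The sgEZH2-1 libraries were below all others, while the sgEZH2-2 libraries overlapped the range of Control. ABCC1 fell with sgEZH2-1 (log2 fold change -0.29, SE 0.0490, adjusted p = 0.00223). With sgEZH2-2 the log2 fold change was -0.05 (SE 0.0491, adjusted p = 0.648), and the log2 difference between the guides was -0.25 (SE 0.0442, adjusted p = 0.00374). Both calls held without any single library.

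ABCC2 (chromosome 10, 99782640 to 99852594, plus strand), also called MRP2, the apical exporter of bilirubin conjugates, was lower with sgEZH2-2 than with sgEZH2-1. Its level was 57.5, 54.9 and 56.1 CPM with sgEZH2-1, 41.8, 43.0 and 39.4 CPM with sgEZH2-2, and 61.6 and 58.9 CPM in Control. The sgEZH2-2 libraries were below all others, and the sgEZH2-1 libraries lay just below both controls. ABCC2 fell with sgEZH2-2 (log2 fold change -0.54, SE 0.0655, adjusted p = 0.000642); with sgEZH2-1 the log2 fold change was -0.10 (SE 0.0648, adjusted p = 0.294). The log2 difference of sgEZH2-1 minus sgEZH2-2 was 0.44 (SE 0.0597, adjusted p = 0.000841), and both calls held without any single library.

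ABCC3, also called MRP3, the basolateral exporter of glucuronides, was at 112, 122 and 115 CPM with sgEZH2-1, at 128, 135 and 133 CPM with sgEZH2-2, and at 110 and 113 CPM in Control. The sgEZH2-2 libraries were above all others, and the sgEZH2-1 and Control ranges overlapped. ABCC3 rose with sgEZH2-2 (log2 fold change 0.25, SE 0.0567, adjusted p = 0.0238); with sgEZH2-1 the log2 fold change was 0.06 (SE 0.0567, adjusted p = 0.457), and the guides differed by -0.18 on the log2 scale (adjusted p = 0.0274). The call against Control was lost without either control or without sgEZH2-2 library 2 or 3 (adjusted p up to 0.119). The call between the guides was lost without sgEZH2-1 library 1 or 3 or sgEZH2-2 library 2 or 3 (adjusted p up to 0.106).

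ABCC10, an exporter of taxanes among other drugs, was at 13.7, 17.0 and 18.3 CPM with sgEZH2-1, at 20.8, 23.1 and 22 CPM with sgEZH2-2, and at 22.7 and 20.2 CPM in Control. With sgEZH2-1 each library was below all others. ABCC10 fell with sgEZH2-1 (log2 fold change -0.39, SE 0.120, adjusted p = 0.0430), a call lost without any 1 of 7 libraries, all but sgEZH2-1 library 3 (adjusted p up to 0.254), and by DESeq2 (adjusted p = 0.0740). The guides differed by -0.42 on the log2 scale (adjusted p = 0.0200), a call lost without sgEZH2-2 library 2 or 3 (adjusted p up to 0.0781).

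ABCC4, also called MRP4, which exports cyclic nucleotides and prostaglandins, was at 28.3, 24.6 and 25.8 CPM with sgEZH2-1, at 32.8, 30.7 and 32.6 CPM with sgEZH2-2, and at 29.4 and 32.1 CPM in Control. The sgEZH2-1 libraries were below all others. Over Control, ABCC4 was at -0.23 with sgEZH2-1 (adjusted p = 0.0793) and at 0.06 with sgEZH2-2 (adjusted p = 0.746) on the log2 scale. The difference between the guides was -0.29 on the log2 scale (adjusted p = 0.0229), and it was lost without sgEZH2-1 library 2 or 3 or sgEZH2-2 library 1 or 3 (adjusted p up to 0.105). With the GC offset described below, ABCC4 was called lower with sgEZH2-1 (-0.26, adjusted p = 0.0117). The guides then differed by -0.34 on the log2 scale (adjusted p = 0.00117). ABCB5, a P-glycoprotein relative, was at 0.613 to 0.797 CPM in the 3 group means and passed no test. ABCC11, an exporter active in apocrine glands, had at most 5 counts in any library and was not tested.

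**Figure D2:**
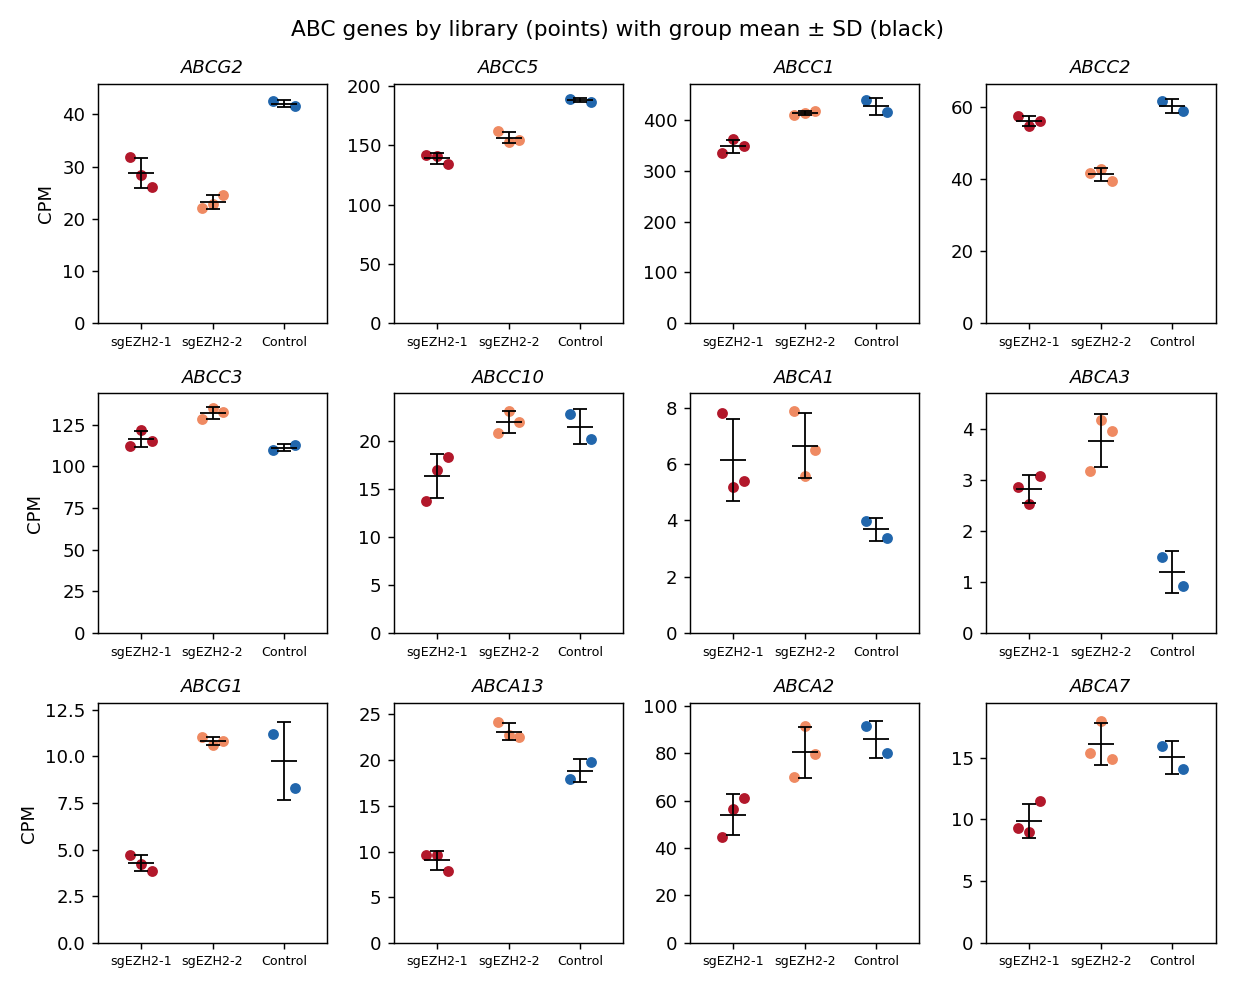
CPM of 12 ABC genes in each library (points) with the mean and SD of each group (black), in the order sgEZH2-1, sgEZH2-2, Control; each vertical axis starts at 0. ABCG2 is lower in all 6 guide libraries than in Control, ABCC2 is lowest with sgEZH2-2, and ABCG1 and ABCA13 are low in the 3 sgEZH2-1 libraries, at 4.71 CPM or less and 9.65 CPM or less.

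The lipid and sterol list held 18 members, of which 12 were tested. With sgEZH2-1, ABCA1 and ABCA3 rose and ABCA2, ABCA7, ABCA13 and ABCG1 fell. With sgEZH2-2, ABCA1 and ABCA3 rose and no member was called lower by edgeR or DESeq2, nor at an unadjusted p of 0.05; with the GC offset described below, edgeR called ABCA2 lower (-0.19, adjusted p = 0.0373) and ABCA13 higher (0.31, adjusted p = 0.0221). These calls are 50% of the 12 with sgEZH2-1, against 20.8% of all tested genes, and 16.7% with sgEZH2-2, against 8.68%. The median log2 fold change of the 12 was -0.06 with sgEZH2-1, against -0.0094 over all tested genes, and 0.22 with sgEZH2-2, against 0.00091. The summed level of the list was 114 ± 4.59 CPM with sgEZH2-1 (SD, n = 3), 167 ± 9.96 CPM with sgEZH2-2 (SD, n = 3) and 161 ± 8.25 CPM in Control (SD, n = 2).

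ABCG1 (chromosome 21, 42199689 to 42297244, plus strand), which moves cholesterol to high-density lipoprotein, was at 4.71, 4.24 and 3.85 CPM with sgEZH2-1, at 11, 10.6 and 10.8 CPM with sgEZH2-2, and at 11.2 and 8.28 CPM in Control. The sgEZH2-1 libraries were below all others, and the sgEZH2-2 libraries lay inside the range of Control. ABCG1 fell to 43.8% of Control with sgEZH2-1 (log2 fold change -1.19; SE 0.159, adjusted p = 0.000597). With sgEZH2-2 the log2 fold change was 0.16 (SE 0.147, adjusted p = 0.591), and the log2 difference between the guides was -1.35 (SE 0.145, adjusted p = 0.000208).

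ABCA13 (chromosome 7, 48171458 to 48647496, plus strand), a very large member linked to cholesterol uptake into vesicles, was at 9.65, 9.65 and 7.84 CPM with sgEZH2-1, at 24.2, 22.7 and 22.5 CPM with sgEZH2-2, and at 18.0 and 19.8 CPM in Control. The groups did not overlap, with sgEZH2-1 lowest and sgEZH2-2 highest. ABCA13 fell with sgEZH2-1, to 48.0% of Control (log2 fold change -1.06, SE 0.110, adjusted p = 0.000126). With sgEZH2-2 the log2 fold change was 0.29 (SE 0.103, adjusted p = 0.115), and the guides differed by -1.36 on the log2 scale (SE 0.0999, adjusted p = 2.23e-05). The calls of ABCG1 and ABCA13 held without any single library.

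ABCA2, a transporter of late endosomes and the most abundant member of the lipid list per kilobase (7.46 CPM per kb in Control), was at 44.5, 56.6 and 61.2 CPM with sgEZH2-1, at 70.1, 91.5 and 79.7 CPM with sgEZH2-2, and at 91.5 and 80.3 CPM in Control. ABCA7, which exports phospholipid, was at 9.27, 8.96 and 11.5 CPM with sgEZH2-1, at 15.4, 18.0 and 14.9 CPM with sgEZH2-2, and at 16.0 and 14.1 CPM in Control. For both genes the sgEZH2-1 libraries were below all others and sgEZH2-2 overlapped Control. ABCA2 fell with sgEZH2-1 by 0.67 on the log2 scale (adjusted p = 0.00686) and ABCA7 by 0.60 (adjusted p = 0.0121). Without Control library 1 these values were -0.56 for ABCA2 (adjusted p = 0.0660) and -0.50 for ABCA7 (adjusted p = 0.105). The guides differed by -0.57 for ABCA2 (adjusted p = 0.0100) and by -0.70 for ABCA7 (adjusted p = 0.00374) on the log2 scale.

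ABCA2 and ABCA7 are also among the members richest in G and C, at 63.7% and 64.7% of the longest transcript. The median log2 fold change of all tested genes ran with GC content. With sgEZH2-1 it fell from 0.14 in the lowest decile to -0.11 in the highest decile. With sgEZH2-2 it was 0.035 in the lowest decile, -0.053 in decile 6 and 0.14 in the highest decile. In the highest decile sgEZH2-1 library 1 was at -0.25 and library 3 at 0.19 relative to their group mean on the log2 scale. With an offset for GC content, ABCA2 was at -0.55 (adjusted p = 2.42e-05) and ABCA7 at -0.49 (adjusted p = 0.00993) with sgEZH2-1 on the log2 scale. The differences between the guides under this offset were -0.36 for ABCA2 (adjusted p = 0.000391) and -0.44 for ABCA7 (adjusted p = 0.0110). The low-GC members ABCA13 (41.1%) and ABCG2 (41.2%) were at -1.10 and -0.60 with sgEZH2-1 under the same offset.

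**Figure D3:**
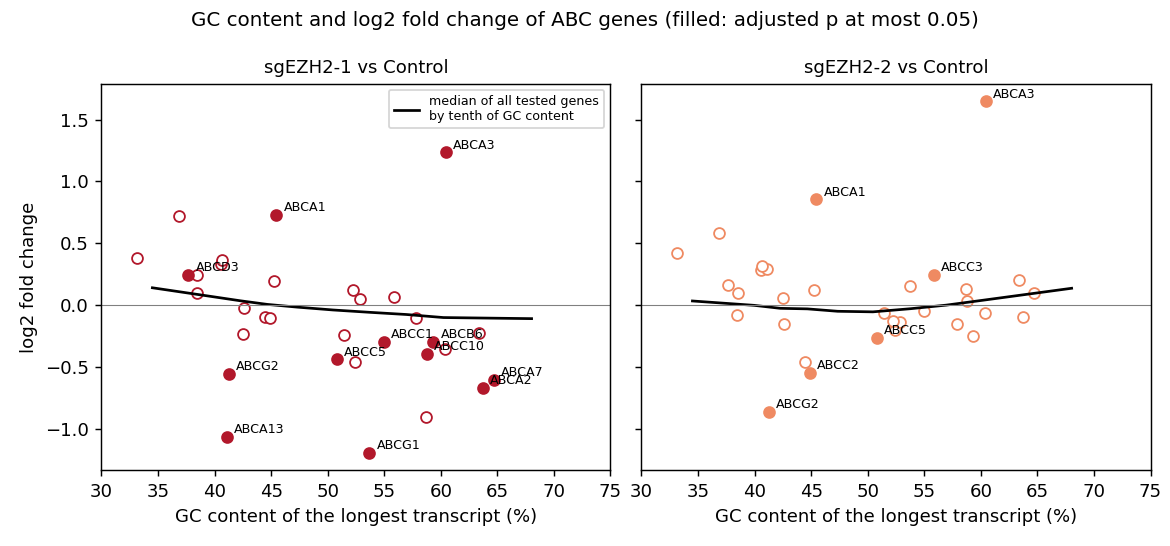
GC content of the longest transcript (horizontal, percent) against the log2 fold change of 32 tested ABC genes with sgEZH2-1 (left) and sgEZH2-2 (right) over Control; filled points have an adjusted p of at most 0.05. The black line is the median of all tested genes by decile of GC content, which falls to -0.11 in the highest decile with sgEZH2-1 and stands at 0.14 there with sgEZH2-2.

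ABCA1 (chromosome 9, 104781002 to 104928237, minus strand), which loads cholesterol and phospholipid onto apolipoprotein, was at 7.80, 5.20 and 5.39 CPM with sgEZH2-1, at 7.87, 5.59 and 6.48 CPM with sgEZH2-2, and at 3.98 and 3.39 CPM in Control. All guide libraries were above both controls, and the guides overlapped. ABCA1 rose with sgEZH2-1 (log2 fold change 0.73, SE 0.230, adjusted p = 0.0473) and with sgEZH2-2 (0.86, SE 0.228, adjusted p = 0.0451). These calls stand close to the threshold: the call with sgEZH2-1 was lost without any 1 of 6 libraries (adjusted p up to 0.188; it held without sgEZH2-1 library 2 or sgEZH2-2 library 1). The call with sgEZH2-2 was lost without any 1 of 7 (adjusted p up to 0.200; it held without sgEZH2-1 library 1). DESeq2 did not call ABCA1 with sgEZH2-1 (adjusted p = 0.0676).

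ABCA3 (chromosome 16, 2275881 to 2340746, minus strand), the phospholipid transporter of lamellar bodies in lung, had a mean of 38.0 counts per library, under the 50 set for giving full values, and is described because it was called in 3 comparisons. Its level was 2.86, 2.53 and 3.08 CPM with sgEZH2-1, 3.18, 4.17 and 3.97 CPM with sgEZH2-2, and 1.49 and 0.913 CPM in Control. The groups did not overlap, with sgEZH2-2 highest and Control lowest. ABCA3 rose with sgEZH2-1 (log2 fold change 1.24, SE 0.271, adjusted p = 0.00977) and with sgEZH2-2 (1.65, SE 0.265, adjusted p = 0.00360). Without Control library 2 the value with sgEZH2-1 was 0.92 (adjusted p = 0.0709), while the call with sgEZH2-2 held without any single library.

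ABCA12, the lipid transporter of epidermal lamellar granules that is mutated in harlequin ichthyosis, is named here for its place in skin and passed no test. It was at 19.9, 18.4 and 15.8 CPM with sgEZH2-1, at 16.8, 16.1 and 16.7 CPM with sgEZH2-2, and at 17.0 and 19.6 CPM in Control, and the groups overlapped. Its log2 fold change was -0.02 (SE 0.111) with sgEZH2-1 and -0.15 (SE 0.112) with sgEZH2-2. The other tested lipid members ABCA4, ABCA5, ABCA9, ABCA10 and ABCB11 had group means from 0.572 to 5.13 CPM and passed no test, with log2 fold changes between -0.46 and 0.72. ABCA5 and ABCA10 overlap by 318 exonic bases on the same strand of chromosome 17, so reads there may have been split between them.

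**Figure D4:**
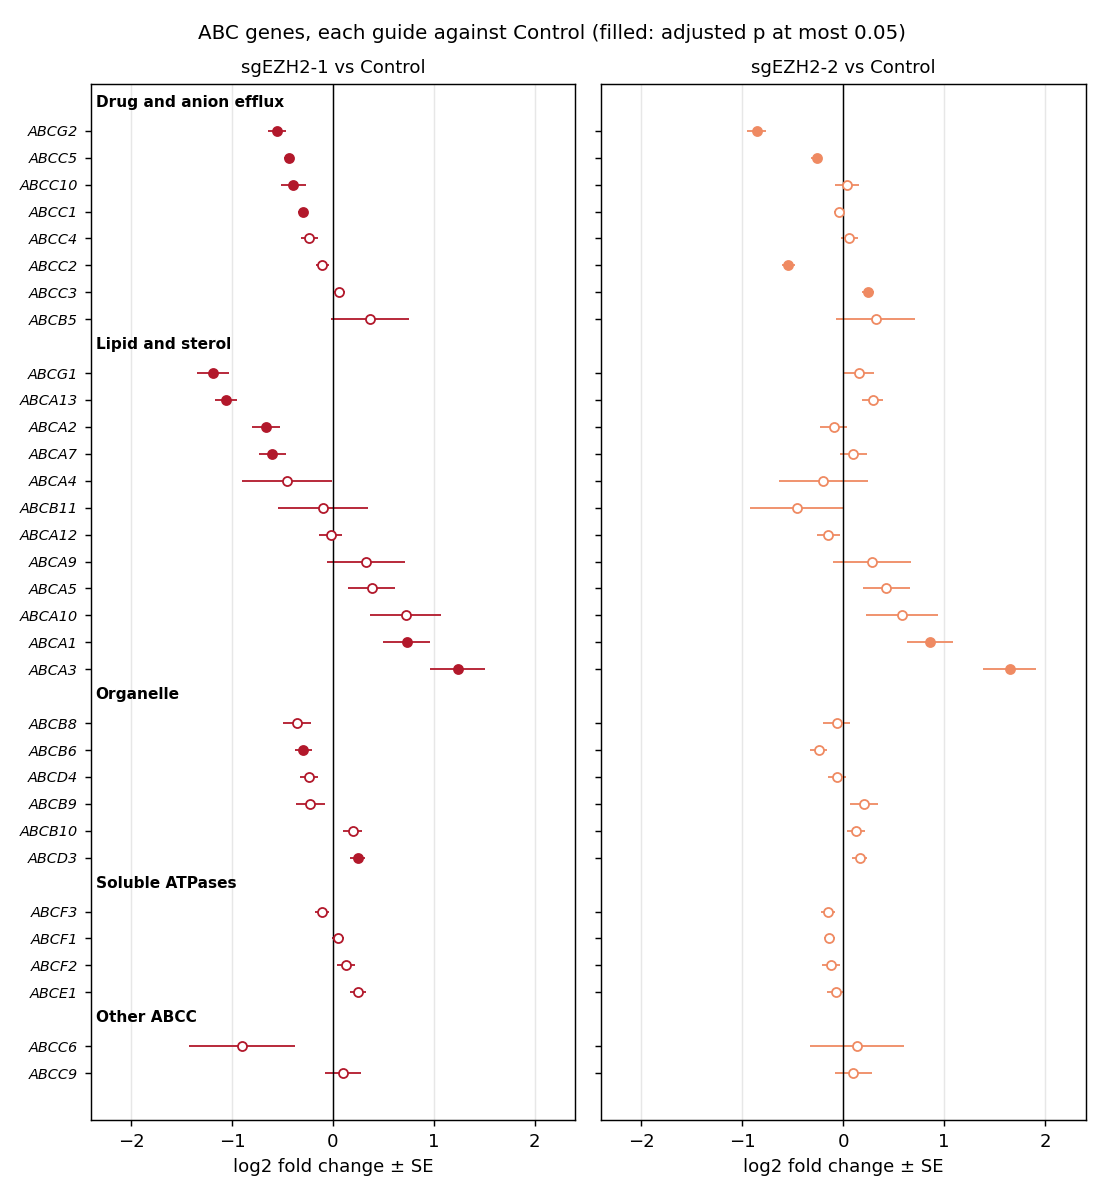
Log2 fold change with SE of 32 tested ABC genes, for sgEZH2-1 over Control (left) and sgEZH2-2 over Control (right), grouped by role; filled points have an adjusted p of at most 0.05. On the left 9 filled points lie below 0 and 3 above, and on the right 3 below and 3 above.

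Members of mitochondria, peroxisomes and lysosomes summed to 251 CPM with sgEZH2-1, 262 CPM with sgEZH2-2 and 260 CPM in Control. Of 8 tested, ABCD3 rose and ABCB6 fell with sgEZH2-1, which is 25% of the list against 20.8% of all tested genes. With sgEZH2-2 edgeR and DESeq2 called 0 of them, and 2 had an unadjusted p of at most 0.05. At that level 1648 of all 13124 tested genes were higher and 1324 lower with sgEZH2-2. ABCD3, a peroxisomal importer of branched-chain fatty acids and bile acid precursors and the most abundant organelle member per kilobase (8.39 CPM per kb in Control), was at 75.6, 77.7 and 72.9 CPM with sgEZH2-1, at 74.4, 68.2 and 71.0 CPM with sgEZH2-2, and at 59.7 and 67.6 CPM in Control. All guide libraries were above both controls, and those of the guides overlapped. ABCD3 was 0.24 above Control on the log2 scale with sgEZH2-1 (adjusted p = 0.0375) and 0.16 above it with sgEZH2-2 (adjusted p = 0.217).

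ABCB6, a porphyrin transporter, was at 27.6, 26.9 and 25.5 CPM with sgEZH2-1, at 25.4, 29.3 and 28.1 CPM with sgEZH2-2, and at 33.9 and 31.4 CPM in Control. All guide libraries were below both controls, and ABCB6 was at -0.29 with sgEZH2-1 (adjusted p = 0.0330) and at -0.25 with sgEZH2-2 (adjusted p = 0.110) on the log2 scale. With the GC offset neither call with sgEZH2-1 held, with ABCB6 at -0.21 (adjusted p = 0.0639) and ABCD3 at 0.13 (adjusted p = 0.0735) on the log2 scale, while ABCB6 was called with sgEZH2-2 (-0.27, adjusted p = 0.0386) and ABCB8 with sgEZH2-1 (-0.26, adjusted p = 0.0370). DESeq2 did not call ABCB6 with sgEZH2-1 (adjusted p = 0.0811). The ABCB6 call was lost without Control library 1, sgEZH2-1 library 2 or 3 or sgEZH2-2 library 3 (adjusted p up to 0.223), and the ABCD3 call without Control library 1, sgEZH2-1 library 1 or 2 or sgEZH2-2 library 2 or 3 (adjusted p up to 0.262). Of the exonic bases of ABCB6, 2864 overlap AC068946.2 on the same strand, so its count is uncertain.

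ABCB9, a lysosomal peptide transporter, was at 5.87, 7.32 and 7.0 CPM with sgEZH2-1, at 9.39, 8.73 and 9.08 CPM with sgEZH2-2, and at 8.66 and 7.11 CPM in Control. The guides did not overlap, and the log2 difference of sgEZH2-1 minus sgEZH2-2 was -0.43 (adjusted p = 0.0393). The call was lost without any 1 of the 6 guide libraries (adjusted p up to 0.102) with DESeq2 and with the GC offset (-0.22, adjusted p = 0.184), and ABCB9 shares 2752 exonic bases with AC026362.1 on the opposite strand. The mitochondrial members ABCB8 and ABCB10 and the lysosomal cobalamin transporter ABCD4 passed no test without the GC offset, with log2 fold changes between -0.36 and 0.19. With the offset, ABCB8 was called with sgEZH2-1, as given above, and ABCD4 between the guides (-0.19, adjusted p = 0.0454). ABCB10 has 3 annotated pseudogenes, so its count is uncertain.

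The ATPases without membrane domains, which act on ribosomes, lay close together per kilobase, between 16.6 and 28.8 CPM per kb in all groups. Against Control, edgeR called 0 of the 4 with sgEZH2-1 and 0 with sgEZH2-2, with 1 member at an unadjusted p of at most 0.05 in each comparison. At that level 2340 of all 13124 tested genes were higher and 2170 lower with sgEZH2-1, and 1648 and 1324 with sgEZH2-2. DESeq2 called 1 of the 4 with sgEZH2-1, where it called 1275 of all tested genes higher and 987 lower, and 0 with sgEZH2-2. With the GC offset edgeR called ABCE1 with sgEZH2-1, at 0.14 on the log2 scale (adjusted p = 0.0318). Between the guides, ABCE1, ABCF1 and ABCF2 were called higher with sgEZH2-1, where 10.4% of all tested genes were called higher and 11.5% lower. The summed level was 463 ± 11.6 CPM with sgEZH2-1 (SD, n = 3), 398 ± 18.8 CPM with sgEZH2-2 (SD, n = 3) and 432 ± 3.53 CPM in Control (SD, n = 2).

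ABCE1, which splits ribosomes after termination, led this list at 24.2 CPM per kb in Control. It was at 182, 180 and 179 CPM with sgEZH2-1, at 156, 133 and 143 CPM with sgEZH2-2, and at 140 and 164 CPM in Control. The sgEZH2-1 libraries were above all others, and sgEZH2-2 overlapped Control. The guides differed by 0.32 on the log2 scale (SE 0.0722, adjusted p = 0.0108), a call that held without any single library, and the log2 fold change over Control was 0.25 with sgEZH2-1 (adjusted p = 0.0536) and -0.08 with sgEZH2-2 (adjusted p = 0.638).

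ABCF1, which works with initiation factor eIF2, was at 99.6, 100.1 and 96.6 CPM with sgEZH2-1, at 89.3, 85.6 and 85.2 CPM with sgEZH2-2, and at 98.0 and 92.7 CPM in Control. ABCF2 was at 73.3, 85.3 and 89.3 CPM with sgEZH2-1, at 69.7, 64.8 and 73.9 CPM with sgEZH2-2, and at 77.8 and 73.8 CPM in Control. The sgEZH2-2 libraries of ABCF1 were below all others, while those of ABCF2 overlapped both other groups. The guides differed by 0.19 for ABCF1 (adjusted p = 0.0253) and 0.25 for ABCF2 (adjusted p = 0.0488) on the log2 scale, calls that depended on single libraries. The ABCF1 call was lost without sgEZH2-1 library 1 or 2 or sgEZH2-2 library 2 or 3 (adjusted p up to 0.0979), and the ABCF2 call without any 1 of 7 libraries, all but sgEZH2-1 library 1 (adjusted p up to 0.172), with RLE size factors (adjusted p = 0.0502) and with no filter on low counts (adjusted p = 0.0556). The table also holds a readthrough row, ABCF2-H2BE1, at 34.1, 31.8 and 36.8 CPM in the group means of sgEZH2-1, sgEZH2-2 and Control, so reads of ABCF2 may be divided. ABCF3 passed no test, at 101 ± 6.26 CPM with sgEZH2-1 (SD, n = 3), 97.5 ± 3.54 CPM with sgEZH2-2 (SD, n = 3) and 108 ± 7.36 CPM in Control (SD, n = 2).

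Among the remaining ABCC genes, ABCC9, a regulatory subunit of potassium channels, was the most abundant, at 15.2, 11.5 and 10.3 CPM with sgEZH2-1, at 12.6, 12.7 and 11.7 CPM with sgEZH2-2, and at 9.52 and 13.4 CPM in Control. The groups overlapped and the log2 fold change was 0.10 with each guide (SE 0.182). ABCC6, which is mutated in pseudoxanthoma elasticum and shares sequence with 2 pseudogenes, was at 0.284, 0.605 and 0.542 CPM in the group means of sgEZH2-1, sgEZH2-2 and Control and passed no test.

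Besides ABCB1 and ABCC11, 9 members had too few reads to be tested. ABCA6 and ABCA8 had 0 counts in every library, which allows up to 0.0715 CPM with sgEZH2-1, 0.0751 CPM with sgEZH2-2 and 0.101 CPM in Control, counting error only. ABCC8, the regulatory subunit of pancreatic potassium channels, ABCC12 and ABCG5 had at most 1 count in any library. ABCD2 had at most 2, ABCG4 at most 5, ABCB4, the phosphatidylcholine exporter of bile, at most 6 and ABCG8 at most 7. ABCG5 and ABCG8, which form the sterol exporter of liver and intestine, lie head to head on chromosome 2.

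Over the whole family, 3 of 34 tested members were called higher and 9 lower with sgEZH2-1, where 20.8% of all tested genes were called. With sgEZH2-2 the numbers were 3 higher and 3 lower, where 8.68% of all tested genes were called. Directly between the guides, 5 were higher and 10 lower with sgEZH2-1, where 21.9% of all tested genes were called. Without Control library 1, 6 members were called with sgEZH2-1. With sgEZH2-2, 3 were called without either control or without sgEZH2-2 library 2 or 3. Between the guides, 9 were called without sgEZH2-1 library 2, 8 without sgEZH2-2 library 2 and 7 without sgEZH2-2 library 3. The share over all genes in these fits with a library left out is not given here.

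With all 6 guide libraries pooled against Control, a fit in which any gap between the guides adds to the spread, ABCA3 rose and ABCC5 and ABCG2 fell, where 4.36% of all tested genes were called, 3.76% higher and 0.594% lower. The pooled log2 fold changes were 1.45 for ABCA3 (SE 0.295, adjusted p = 0.0210), -0.35 for ABCC5 (SE 0.0746, adjusted p = 0.0280) and -0.70 for ABCG2 (SE 0.125, adjusted p = 0.0116). ABCA1 was at 0.79 (SE 0.217, adjusted p = 0.0784). Without Control library 1 or without Control library 2 edgeR called 0 members, with 4 and 8 at an unadjusted p of at most 0.05. The shares over all genes in these 2 fits are not given here. Without sgEZH2-1 library 2, ABCC5 was at -0.32 (adjusted p = 0.0739). As the mean of both guides in the fit of 3 groups, 2 members were called higher and 7 lower, where 12.3% of all tested genes were called, 7.7% higher and 4.59% lower.

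Genes that work with these transporters were counted on lists drawn up from textbook roles, with earlier results of these data known. The shares of these lists are therefore descriptions, and no list was tested as a set. Of 13 tested sterol genes, 6 fell with sgEZH2-1, and with sgEZH2-2 OSBPL5, a sterol carrier, rose and NPC1, the lysosomal cholesterol exporter, fell. These calls are 46.2% of the list with sgEZH2-1 and 15.4% with sgEZH2-2, against 20.8% and 8.68% of all tested genes. LPCAT3, a phospholipid acyltransferase controlled by the liver X receptors that also control ABCA1 and ABCG1, was at 64.3, 61.2 and 58.6 CPM with sgEZH2-1, at 92.2, 93.9 and 98.0 CPM with sgEZH2-2, and at 99.9 and 93.8 CPM in Control. The sgEZH2-1 libraries were below all others, and LPCAT3 fell by 0.66 on the log2 scale there (adjusted p = 8.4e-05). On the log2 scale OSBPL5 rose by 0.72 with sgEZH2-2 (adjusted p = 0.0193) and NPC1 fell by 0.18 (adjusted p = 0.0496). DESeq2 called 0 genes of this list lower with sgEZH2-2, so it did not call NPC1. The desaturase SCD and the phospholipid transfer protein PLTP, chosen after their values were seen, fell with sgEZH2-1 by 1.11 and 0.96 on the log2 scale, and stood at 0.05 and -0.04 with sgEZH2-2.

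Of 15 tested receptors and factors known to control ABC genes, 6 fell with sgEZH2-1 (40.0% of the list, against 20.8% of all tested genes called) and 1 rose with sgEZH2-2 (6.67%, against 8.68%). NR1H3, the gene of liver X receptor alpha, was at 2.78, 3.15 and 2.80 CPM with sgEZH2-1, at 4.49, 4.33 and 4.04 CPM with sgEZH2-2, and at 6.04 and 4.17 CPM in Control. Values with sgEZH2-1 were below all others, and sgEZH2-2 overlapped Control. NR1H3 fell with sgEZH2-1 (log2 fold change -0.80, adjusted p = 0.0162); with sgEZH2-2 the value was -0.25 (adjusted p = 0.495). On the log2 scale AHR, the dioxin receptor, was at -0.12 with sgEZH2-1 (adjusted p = 0.276) and -0.21 with sgEZH2-2 (adjusted p = 0.110). SREBF1, the sterol regulatory factor that rose with sgEZH2-2, is outside the naming rule; on the log2 scale it was at -0.60 with sgEZH2-1 (adjusted p = 0.00823) and at 0.47 with sgEZH2-2 (adjusted p = 0.050).

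Of 15 tested glutathione and conjugation enzymes, which make substrates of the ABCC pumps, 1 rose and 5 fell with sgEZH2-1, and 3 fell with sgEZH2-2. The shares called were 40.0% and 20%, against 20.8% and 8.68% of all tested genes. UGT1A6, a glucuronidating enzyme, was at 555, 527 and 499.9 CPM with sgEZH2-1, at 516, 543 and 516 CPM with sgEZH2-2, and at 635 and 637 CPM in Control. All guide libraries were below both controls, and UGT1A6 fell by 0.27 with sgEZH2-1 (adjusted p = 0.00502) and by 0.28 with sgEZH2-2 (adjusted p = 0.00933) on the log2 scale. UGT1A1 shares exons with UGT1A6, so reads of the pair are hard to separate, and it was at -0.21 and -0.30 without a call. GSTK1, a glutathione transferase, fell with sgEZH2-1 (-0.43, adjusted p = 0.00123) and was at -0.22 with sgEZH2-2 (adjusted p = 0.0680).

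Of 15 tested genes of the epidermal ceramide barrier, in which ABCA12 works, 5 rose and 2 fell with sgEZH2-1, and 1 rose and 1 fell with sgEZH2-2. That is 46.7% and 13.3% of the list, against 20.8% and 8.68% of all tested genes. ELOVL4, which makes the ultra-long acyl chains of barrier ceramides, was at 8.26, 9.37 and 8.54 CPM with sgEZH2-1, at 3.93, 3.93 and 4.35 CPM with sgEZH2-2, and at 1.21 and 1.57 CPM in Control. The groups did not overlap, and ELOVL4 rose by 2.64 with sgEZH2-1 (adjusted p = 9.79e-06) and by 1.54 with sgEZH2-2 (adjusted p = 0.000911) on the log2 scale. UGCG, which adds glucose to ceramide, rose with sgEZH2-1 (0.38, adjusted p = 0.0207) and was at 0.31 with sgEZH2-2 (adjusted p = 0.0833). DEGS1, the dihydroceramide desaturase, fell with sgEZH2-1 (-0.21, adjusted p = 0.0442) and with sgEZH2-2 (-0.26, adjusted p = 0.0351).

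Of 16 heme and iron-sulfur genes, 3 fell with sgEZH2-1 (18.8% of the list, against 20.8% of all tested genes called) and 2 with sgEZH2-2 (12.5%, against 8.68%). NFS1, the cysteine desulfurase, fell with both (-0.31, adjusted p = 0.00717, and -0.30, adjusted p = 0.0182), as did its scaffold ISCU (-0.30, adjusted p = 0.0244, and -0.32, adjusted p = 0.0327). UROD, a heme synthesis enzyme, was at -0.18 and -0.06 without a call. Of 20 peroxisome genes, 5 fell with sgEZH2-1 (25%, against 20.8% of all tested genes called), among them the peroxin PEX26 (-0.20, adjusted p = 0.0213). With sgEZH2-2 edgeR and DESeq2 called 0 peroxisome genes, with 5 at an unadjusted p of at most 0.05. At that level 1648 of all 13124 tested genes were higher and 1324 lower with sgEZH2-2.

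Of 11 ribosome recycling and initiation genes, 1 was called with sgEZH2-1 (9.09%, against 20.8% of all tested genes): HBS1L, a ribosome rescue factor, rose (0.20, adjusted p = 0.0389), while DESeq2 called 0 of the 11. With sgEZH2-2 edgeR and DESeq2 called 0 of them, with 3 at an unadjusted p of at most 0.05, where 1648 of all 13124 tested genes were higher and 1324 lower. Directly between the guides 5 were higher with sgEZH2-1 (45.5%, against 21.9% of all tested genes called). EIF2AK4 and GCN1, a kinase and its activator on stalled ribosomes, were at -0.11 and -0.10 with sgEZH2-1 and at -0.10 and -0.10 with sgEZH2-2 on the log2 scale. The antigen peptide transporters TAP1 and TAP2, ABC proteins under other symbols, rose with sgEZH2-1 (0.25, adjusted p = 0.0128, and 0.44, adjusted p = 0.00174) and were at 0.09 (adjusted p = 0.404) and 0.15 (adjusted p = 0.231) with sgEZH2-2.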

How the data were processed

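The authors deposited 1 table of unnormalized counts of reads per gene, as whole numbers, 1 column for each library. The tools listed are FastQC, STAR and DESeq, and the build is hg38, per the submitters' processing notes. Tool versions, the read counter, its annotation and its strand handling are not stated in the labels or the file, so reads of overlapping or near-identical genes may have been split. Libraries were made with a TruSeq stranded mRNA kit, per the labels' protocols. Column names give the group and no replicate number.

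Counts were tested in edgeR 4.0.16 (R 4.3.3) by its two-sided quasi-likelihood test, with TMM scaling, filterByExpr at a minimum count of 10, and Benjamini-Hochberg adjustment over 13124 genes. Each SE was obtained as the log2 fold change over the root of its F value. A fit of 3 groups gave both guide comparisons and the difference between the guides; the pooled comparison was a fit of 2 levels. The code was tested on simulated data. Exon lengths, GC content and coordinates come from GENCODE release 29 (GRCh38, 1-based), matched by symbol for all 45 members. The intervals and limits for 0 counts (3 counts) cover counting error only.

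The members, the role lists, the partner lists, the naming rule and the tests were chosen with earlier results of these data known. Full values are given for members with an adjusted p of at most 0.05 in any comparison and a mean count of at least 50, and for the most abundant member per kilobase of each role list; from each partner list up to 3 genes with the smallest adjusted p in the pooled comparison are named. Some members and partner genes are counted but not reported singly here. Alternatives were DESeq2 1.42.0, RLE size factors, no filter, plain library totals, a fit of 3 groups for the mean of both guides, each library left out in turn and, chosen after seeing the data, an offset for GC content in 20 bins.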

Additional observations from a re-analysis of the deposited data

Results flagged for a closer look

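The effect of the guides differed for 15 members by the direct test of sgEZH2-1 minus sgEZH2-2 (edgeR's quasi-likelihood test), where 21.9% of all tested genes were called. Lower with sgEZH2-1 were ABCA13, with a log2 difference of -1.36, ABCG1 at -1.35, ABCA7 at -0.70, ABCA2 at -0.57, ABCB9 at -0.43, ABCC10 at -0.42, ABCC4 at -0.29, ABCC1 at -0.25, ABCC3 at -0.18 and ABCC5 at -0.17. Higher with sgEZH2-1 were ABCC2 at 0.44, ABCE1 at 0.32, ABCG2 at 0.31, ABCF2 at 0.25 and ABCF1 at 0.19. In the drug efflux list 7 of 8 tested members are among these.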

How the results depend on the processing

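Among the tests of single members, 799 alternative values kept their direction and side of the threshold, 93 kept the direction and no longer passed, 17 kept it and now passed, and 22 changed sign, all of them uncalled before and after; the cause was not tested. Of 36 calls, 15 held without any single library and 21 were lost without at least 1. Leaving out each library in turn gave 6 to 12 members called with sgEZH2-1 (12 with all libraries), 3 to 6 with sgEZH2-2 (6), 7 to 14 between the guides (15) and 0 to 3 pooled (3). The fit of 3 groups for the mean of both guides called 9 members, against 3 pooled. On plain library totals the summed level of the members was 1676 CPM with sgEZH2-2 and 1724 CPM in Control. DESeq2 called 10 members with sgEZH2-1, 6 with sgEZH2-2, 14 between the guides and 4 pooled. Among the 13124 tested genes it called 1275 higher and 987 lower with sgEZH2-1, and 692 higher and 261 lower with sgEZH2-2. Between the guides it called 1145 higher and 1290 lower, and pooled 638 higher and 158 lower. The GC offset, chosen after seeing the data, called 13, 9, 15 and 4 members. Shares over all genes are not given here for the GC offset or for fits with a library left out. No paired analysis was possible because the columns carry no replicate number. Sign changes under the GC offset (log2) were ABCA7 with sgEZH2-2 at -0.055, the guide differences of ABCB6 at 0.059 and ABCD3 at -0.0049, and pooled ABCF1 at 0.010; ABCB9 was at -0.0092 as the mean of both guides. Leaving out single libraries changed signs for these log2 ranges: the guide difference of ABCA1 (-0.33 to 0.013); with sgEZH2-2, ABCA2 (-0.20 to 0.00788), ABCC1 (-0.086 to 0.0023), ABCC10 (-0.050 to 0.13), ABCE1 (-0.18 to 0.045) and ABCG1 (-0.051 to 0.39); pooled, ABCB9 (-0.13 to 0.16), ABCE1 (-0.011 to 0.22), ABCF1 (-0.081 to 0.0057) and ABCF2 (-0.033 to 0.049). Only 2 control libraries enter each comparison with Control, and members with few reads could not be tested.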
